A study of Mus musculus with 2 samples.

Results

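The E-box motifs of the MYC, MAX and USF factors are 8 DNA patterns that were counted in open chromatin of single cells from embryonic mouse retina. They were taken by name from the motif tables: MYC, MYCN, MAX, the MAX::MYC dimer, MNT, MLX, USF1 and USF2, which are 8 of 579 motifs. The samples were 2 replicate libraries of whole wild-type (WT) mouse retina at embryonic stage E14.5, profiled cell by cell for open chromatin with the 10x Genomics droplet method (single-cell ATAC-seq, in which a transposase cuts accessible DNA). Both libraries belong to the same group, so no conditions were compared, and no label ties a replicate to an animal or litter. The p-values below therefore measure only spread between these 2 libraries, which edgeR pools in part over all motifs. No transgene, deletion or treatment is named in the labels.

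The factors named by the 8 motifs are basic helix-loop-helix leucine zipper proteins that bind DNA as dimers, most strongly at E-boxes with the palindromic core CACGTG. MYC and MYCN are growth-promoting factors that pair with MAX, and MYCN is the family member known for supporting proliferation of mouse retinal progenitors. MNT also pairs with MAX and represses the same kind of site. MLX is the shared partner of the glucose-responsive factors MLXIP and MLXIPL, and USF1 and USF2 are widely expressed activators that bind near gene starts. Related proteins read the same core: MITF, TFE3, TFEB and TFEC, known for pigment cell and lysosomal genes, and MXI1, another MAX partner. E2F factors and their partner TFDP1 bind genes of the cell cycle, and SP and KLF zinc fingers, NRF1, ZBTB33, NFY and YY1 bind the GC-rich or otherwise characteristic elements of promoters.

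The core occurs in a small share of gene starts. Among 32851 RefSeq promoter windows of the mouse build GRCm38.p6, each reaching from 250 bases before to 50 bases after a gene's start, CACGTG was found in 2349, or 7.15%; it reads the same on both strands. It was found in 9.69% of the 11714 windows that also hold GGGCGG on either strand, the letters of a GC box as bound by SP factors, and in 5.74% of the 21137 windows without it. Of windows with TTGGCGC or TTCCCGC on either strand, the letters of an E2F site, 10.1% held the core, against 6.94% of windows without them. Among windows with GGGCGG these shares were 10.4% and 9.58%, and among windows without it they were 9.27% and 5.62%. These are descriptions of sequence, and a match is not a bound site.

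Sites in 5 promoters show what the core looks like in place and how the bases beside the core vary. They come from a list of 12 genes named as MYC targets in textbooks, of which 10 are in the promoter table and 5 hold the core. Each line is read 5′ to 3′ on the strand of the gene, and capitals mark the core.
Cdk4, a kinase of the cell cycle, chr10:127063405-127063434, core starting at position -118 from the gene start: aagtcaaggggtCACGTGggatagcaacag
Apex1, a DNA repair nuclease, chr14:50924913-50924942, core at position -24, with GGGCGG close behind it: gcgctccagaacCACGTGggggcggagccc
Eif4e, the cap-binding translation factor, chr3:138527192-138527221, core at position -64: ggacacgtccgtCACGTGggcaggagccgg
Hspd1, a mitochondrial chaperone on the minus strand, chr1:55088306-55088335, core at position -80: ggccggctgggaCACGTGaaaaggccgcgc
Ldha, lactate dehydrogenase, chr7:46845744-46845773, core at position -48: cggcccagcctaCACGTGggttcccgcacg
Cdk4 had 4 cores in its window and Apex1 had 3. Over all windows the flanked form CCACGTGA, counted together with its reverse complement, made up 516 of 2582 cores, and 57.9% of these sites lay in windows with a GC box. TCACGTGA made up 13.2%, with 58.5% in such windows. ACACGTGT, at 3.64%, was the rarest flanked form, with 27.7% in such windows. The motif matrices themselves were not used here, so which flanks each of the 8 patterns accepts is not given.

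The measured value is a raw count per cell and motif. In matrices of this kind a cut inside a peak counts for every motif found in that peak, so a motif's count is the openness of all peaks with its pattern and not binding by the factor. Motifs with like patterns share peaks and therefore counts. The number of peaks that any pair shared was not measured here. Replicate 1 held 3373212147 counts over 2422 barcodes and replicate 2 held 3932721221 over 3033. Cells were kept when they had at least 300000 counts and more than the same barcode in the other library, since 1828 barcodes occurred in both. The cause of this overlap was not tested. The filter assigns a shared barcode to a single library and leaves its counts unchanged. Whether the 2 libraries are fully independent is thus not known, and the SDs and p-values below carry this limit. No doublet caller was run, and kept cells reached 23789174 counts in replicate 1 and 18595593 in replicate 2; the part of doublets in the results was not tested. This left 890 and 1051 cells with medians of 3519151 and 3523871 counts. Every one of the 8 motifs had counts in every kept cell, from a lowest value of 37 for MAX::MYC to a highest of 18175 for USF2.

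Together the 8 motifs took 0.312% ± 0.00025 of all counts (SD, n = 2). USF2 had the highest share, 0.0787% in replicate 1 and 0.0792% in replicate 2, with a median of 2767 and 2824 counts per cell. MYC followed with 0.0433% and 0.0456%, and USF1 with 0.0417% and 0.0419%. MNT had 0.0394% and 0.0383% and MAX 0.0378% and 0.0368%. The lowest shares were those of MYCN with 0.0270% and 0.0265%, MLX with 0.0235% in both, and MAX::MYC with 0.0204% and 0.0197%. The order was the same in both libraries, and a share depends on how often the pattern occurs in peaks. MYC differed most between the libraries, by a log2 ratio of 0.075 (replicate 2 over 1), and MLX least, by 0.0032. The median absolute ratio was 0.034 for the 8 motifs and 0.021 for all motifs.

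Variation between cells came to several percent for all 8 motifs. The coefficient of variation (CV) in excess of counting noise ran from 4.69% ± 0.32 for MNT (SD, n = 2) to 8.21% ± 0.62 for MLX. Its median over the 8 motifs was 6.66% in replicate 1 and 6.90% in replicate 2, against 6.19% and 6.27% over all motifs. Set against the trend of the CV on the mean over all motifs, USF2 stood highest, at a log2 residual of 0.55 ± 0.0084. USF1 stood at 0.42 ± 0.081, MLX at 0.22 ± 0.13 and MYC at 0.13 ± 0.010. MYCN lay near the trend at −0.041 ± 0.0087, as did MAX::MYC at −0.058 ± 0.054. MAX and MNT lay below it, both at −0.34, with SDs of 0.080 and 0.062. Thus 4 of 8 motifs were above the trend in both libraries, where 258 of all 579 motifs, or 44.6%, were. Counting noise made up from 10.5% of the variance for USF2 to 36.9% for MAX in replicate 1.

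The 8 motifs did not all vary together. Across cells, after removal of depth within each library, MAX and MNT were nearly the same measurement, with r of 0.978 in replicate 1 and 0.980 in replicate 2. MAX::MYC followed MAX with a mean r of 0.43 and MNT with 0.42. USF1 and USF2 correlated at 0.773 and 0.803, and MLX correlated with USF1 at a mean of 0.53 and with USF2 at 0.50. MYC correlated with USF2 at 0.49 and with USF1 at 0.43, but with its partner MAX only at 0.10 and with the MAX::MYC pattern at 0.050. MYCN was nearest to MYC within the set, at 0.27. These values are descriptions over cells that share a library, and cells are not replicates.

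**Figure D1:**
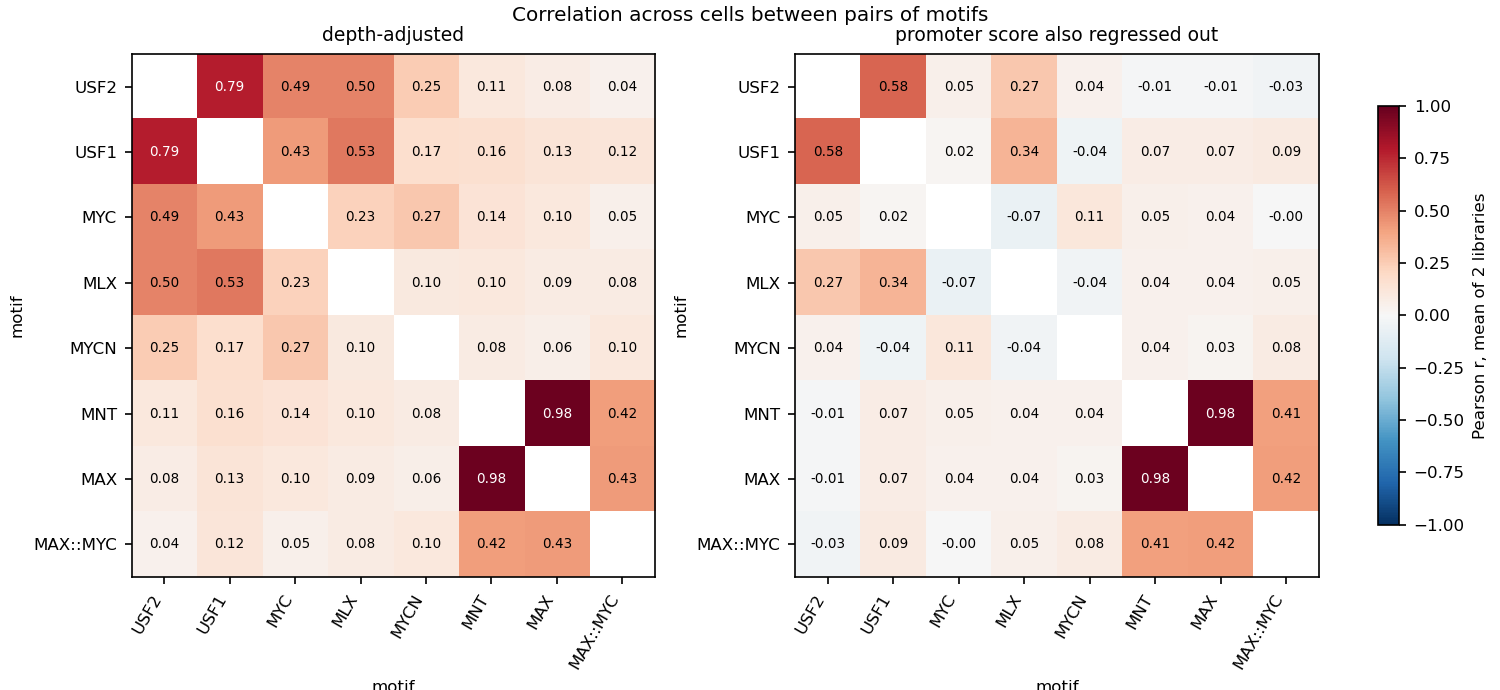
Pearson r across cells for each pair of the 8 motifs, as the mean of the 2 libraries, after removal of depth (left) and after removal of depth and of the promoter score (right). MAX, MNT and MAX::MYC form a block that is alike on both sides, the USF1 and USF2 pair stays at 0.58 on the right, and the MYC values with USF1 and USF2 fall from 0.43 and 0.49 to 0.02 and 0.05.

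Outside the set, the nearest motifs differed between members; they were picked after the values had been seen. MLX correlated at 0.999 with MLXIPL and with the second patterns of SREBF1 and SREBF2, so these 4 are near copies and do not count as separate signs. MYC and MYCN were both nearest to MXI1, at 0.73 and 0.52. USF2 and USF1 were both nearest to TFEB, at 0.78 and 0.72. MAX, MNT and MAX::MYC had no neighbour outside the set above 0.23. The 5 motifs most like the mean of the 8 motifs were KLF5 (mean r of 0.65 over 2 libraries), SP1 (0.64), TFEB (0.64), SP8 (0.63) and SP3 (0.63), of which 4 are GC-box patterns. The least like were the homeodomain motifs Dlx2 (−0.62), BARX1 (−0.62) and Nkx2-5 (−0.62).

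The relation to promoter motifs was then measured with a score, the mean of 18 standardized promoter motifs, which holds none of the 8. It is not independent of them: its motifs SP1, SP2, SP3, KLF5, KLF16 and NRF1 each correlated with a member above 0.7 in both libraries. USF2 correlated with it at 0.75, USF1 at 0.67, MYC at 0.62 and MLX at 0.45, as means of the 2 libraries. MYCN stood at 0.30, MNT at 0.15, MAX at 0.11 and MAX::MYC at 0.081. Motifs outside the set and the list had a median of −0.094, with 0.53 at the 90th percentile. Depth was similar along the score, with a median in the top tercile of cells of 0.951 and 1.01 times that of the bottom tercile in the 2 replicates.

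Of the 8 motifs, 7 rose in cells with a high promoter score. Cells were cut into 3 equal groups by score (terciles), and counts were summed over the top and the bottom tercile in each library and compared with edgeR's quasi-likelihood test, with the library as a block and adjustment over 579 motifs. USF2 took 0.0765% of counts in the bottom and 0.0818% in the top tercile in replicate 1, and 0.0770% and 0.0818% in replicate 2. Its log2 difference was 0.091 ± 0.0047 (SE; edgeR adjusted p = 3.95e-12). MYC rose from 0.0419% to 0.0449% in replicate 1 and from 0.0442% to 0.0473% in replicate 2, a log2 difference of 0.097 ± 0.0051 (edgeR adjusted p = 5.27e-12), or 1.07-fold. In both cases the top terciles of both libraries lay above both of their bottom terciles, although for MYC the libraries themselves stood apart. USF1 rose by 0.087, MYCN by 0.066, MLX by 0.064, MNT by 0.035 and MAX by 0.031. MAX::MYC stood at 0.015 ± 0.0073 and was not called (edgeR adjusted p = 0.0617). The median over the 8 motifs was 0.065, against 0.00013 over all motifs. Since the score holds motifs tied to members, a rise was in part set by the score, and its p-values are no separate sign. In this comparison 77.2% of all motifs were called in either direction, 38.3% higher and 38.9% lower, and the count of 7 of 8 members stands against the share called higher. MAX and MNT are nearly the same measurement, and USF1 and USF2 vary together. Counts of members, here and below, are therefore not counts of separate outcomes. With no replicate block 3 members were called: USF1, USF2 and MLX.

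**Figure D2:**
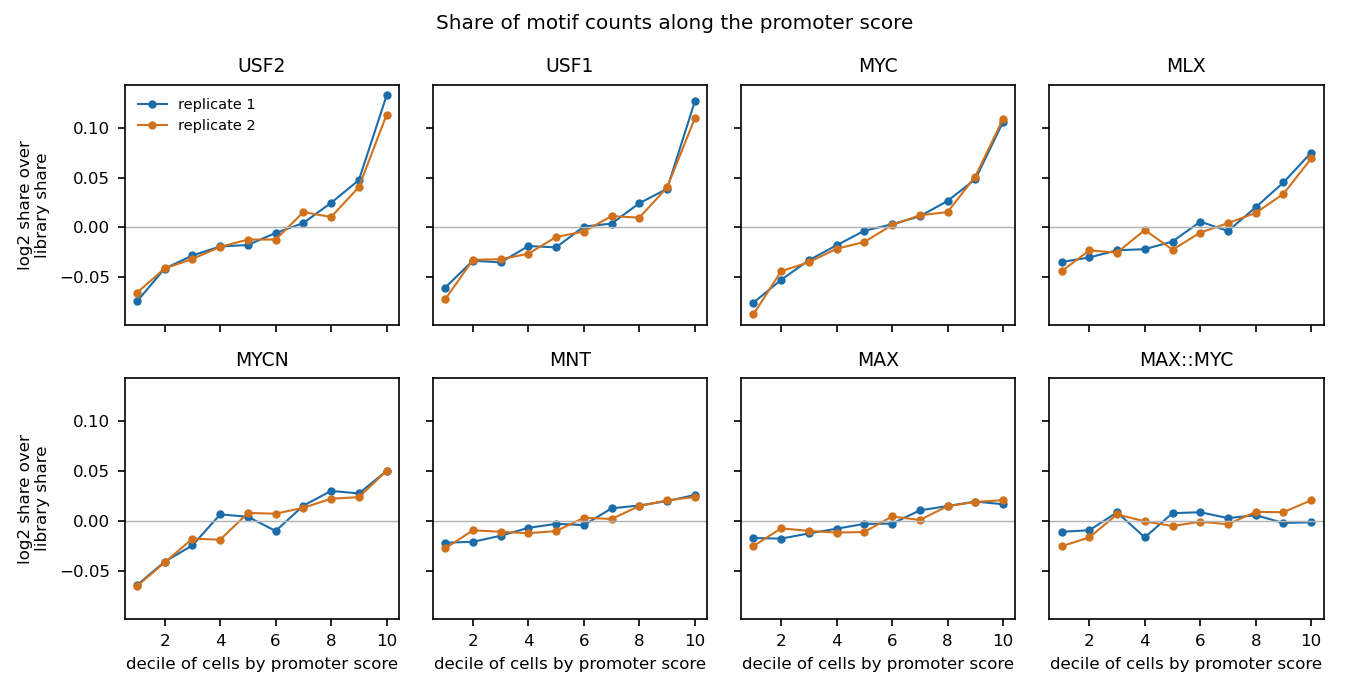
Log2 of each motif's share of counts in deciles of cells ordered by promoter score, over its share in the whole library, for each replicate. MYC rises at 9 of 9 steps in both replicates, USF1 and USF2 end 0.18 to 0.21 above their first decile, and MAX::MYC ends 0.0096 and 0.046 above it.

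Along deciles of the promoter score, MYC rose at 9 of 9 steps in both libraries, from 0.0411% to 0.0466% in replicate 1 and from 0.0429% to 0.0492% in replicate 2. USF2 went from 0.0748% to 0.0863% in replicate 1 and from 0.0757% to 0.0857% in replicate 2. USF1 differed by 0.19 and 0.18 on the log2 scale between the end deciles. MLX differed by 0.11 in both libraries and MYCN by 0.11 and 0.12. MAX differed by 0.034 and 0.046, and MAX::MYC by 0.0096 and 0.046. Within 3 classes of depth in each library, the correlation with the promoter score kept its sign for all 8 motifs, from 0.59 to 0.81 for USF2, from 0.53 to 0.66 for MYC and from 0.034 to 0.13 for MAX::MYC.

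The score of E2F motifs, patterns of cell cycle genes, showed a weaker relation. It weighs its motifs equally, and 5 of them had only 42.0 to 464 counts per cell on average. The single motifs differed, as given below. With the score of 8 E2F motifs USF2 correlated at 0.40, MYC at 0.39 and USF1 at 0.37, and the median over the 8 E-box motifs was 0.19. The E2F score itself correlated with the promoter score at 0.57. With the promoter score regressed out of both, the median over the 8 motifs was −0.00027, being 0.048 in replicate 2 alone. Between terciles of the E2F score 6 motifs rose and 0 fell, while 68.9% of all motifs were called, 36.8% higher and 32.1% lower. MYC went from 0.0425% to 0.0442% in replicate 1 and from 0.0448% to 0.0467% in replicate 2, a log2 difference of 0.058 ± 0.0050 (SE; edgeR adjusted p = 9.32e-29). USF1 (0.045), USF2 (0.042), MYCN (0.039), MLX (0.029) and MAX::MYC (0.027) also rose. MNT (0.0087) and MAX (0.0067) were not called. In this fit the spread was pooled over all motifs with an infinite prior weight, which makes its p-values very small, and the same holds for the SOX, neurogenic and promoter-matched neurogenic scores below. With no replicate block 1 member, USF1, was called.

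When terciles of the E2F score were cut within deciles of the promoter score, so that cells of like promoter score were compared, 1 of the 8 motifs was called, where 54.6% of all motifs were called, 24.7% higher and 29.9% lower. That motif was MAX::MYC, which took 0.0202% of counts in the bottom and 0.0208% in the top terciles in replicate 1 and 0.0196% and 0.0199% in replicate 2. Its log2 difference was 0.023 ± 0.0062 (SE; edgeR adjusted p = 0.00796). The call was lost under 5 of 12 alternatives, among them the fit with no replicate block. MYC stood at 0.0038 ± 0.0053, with −0.0037 in replicate 1 and 0.010 in replicate 2, and MYCN at −1.5e-05, with −0.021 and 0.018. USF2 stood at −0.0068 and USF1 at −0.00093, and the libraries had opposite signs for both. MAX and MNT were both at −0.011 (edgeR adjusted p of 0.087 and 0.0805). Over alternative settings from 0 to 3 members were called in this comparison.

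The E2F list was not uniform. E2F4, E2F6 and TFDP1 each correlated with the promoter score, at 0.77, 0.79 and 0.68, and had from 4324 to 11404 counts per cell on average in a library. The other 5 motifs, E2F1, E2F2, E2F3, E2F7 and E2F8, correlated with it at −0.081 to 0.11 and had from 42.0 to 464 counts per cell. This split was made after the single values had been seen. MYC correlated at 0.58 with both E2F4 and E2F6 and at 0.48 with TFDP1, USF2 at 0.58, 0.59 and 0.51, and USF1 at 0.52, 0.52 and 0.45. With the other 5 motifs, the 8 E-box motifs correlated at −0.052 to 0.19, the highest being MAX::MYC with E2F7 (0.220 in replicate 1 and 0.158 in replicate 2). With the promoter score regressed out, MYC kept 0.188 and 0.227 with E2F4 in replicates 1 and 2, and 0.164 and 0.204 with E2F6. Under the same removal the mean r of MYC with the 18 promoter motifs ran from −0.16 (NFYA) to 0.19 (SP1). As means, MYC stood at 0.21 with E2F4 and 0.18 with E2F6. The 18 promoter motifs make up the score that was removed, so they are no outside yardstick. Whether values of this size are particular to E2F motifs was not tested. With the promoter score out, USF2 stood at −0.0012 with E2F4 and USF1 at 0.0082, and MLX at −0.19. The difference in counts between the parts of the list moves with these correlations, and its part in them was not tested.

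**Figure D3:**
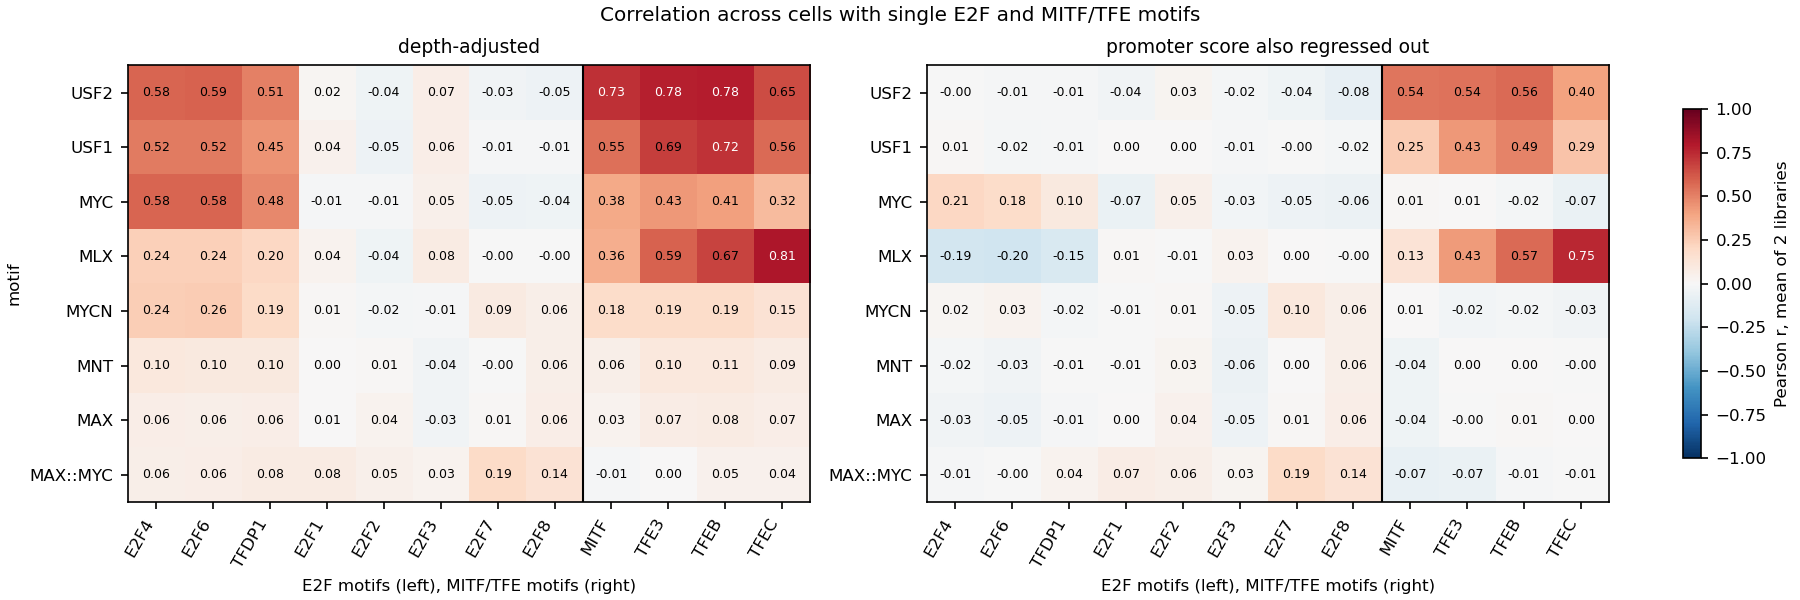
Pearson r across cells, as the mean of the 2 libraries, of each of the 8 E-box motifs with the 8 E2F motifs and the 4 MITF/TFE motifs, after removal of depth (left) and also of the promoter score (right). On the right the values with E2F4 and E2F6 stay near 0.2 for MYC alone, and the values with the MITF/TFE motifs stay above 0.1 for USF2, USF1 and MLX alone.

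MITF and TFE motifs, whose factors read an E-box of nearly the same letters, divided the 8 motifs. With the score of MITF, TFE3, TFEB and TFEC, USF2 correlated at 0.83, USF1 at 0.71, MLX at 0.68 and MYC at 0.43, and this score correlated with the promoter score at 0.71. With the promoter score regressed out USF2 kept 0.63, MLX 0.58 and USF1 0.45, while MYC stood at −0.022 (−0.077 in replicate 1 and 0.032 in replicate 2). In each of 6 classes by library and depth, USF2 kept 0.56 to 0.67, MLX 0.49 to 0.63 and USF1 0.37 to 0.51, and MYC lay between −0.084 and 0.074. By single motif, MLX was closest to TFEC (0.81, and 0.75 with the promoter score out) and farther from MITF (0.36 and 0.13). USF2 differed less among the 4, at 0.73 for MITF, 0.78 for TFE3, 0.78 for TFEB and 0.65 for TFEC. With the promoter score out its values ran from 0.40 to 0.56.

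Between terciles of the MITF/TFE score 7 motifs rose and 0 fell, with 74.8% of all motifs called, 38% higher and 36.8% lower. All 4 motifs of this score correlated with a member above 0.7 in both libraries and were held out of the clustering below. A rise of USF2, USF1 and MLX was thus in part set by the score, and its p-values are no separate sign. MLX rose by a log2 difference of 0.12 ± 0.0067 (SE; edgeR adjusted p = 2.09e-06), USF2 by 0.11 ± 0.0046, USF1 by 0.11 ± 0.0055 and MYC by 0.054 ± 0.0047. MNT (0.024), MAX (0.021) and MYCN (0.017) rose by less, and MAX::MYC (−0.0027) was not called. With no replicate block only MLX, USF1 and USF2 were called. In the middle tercile of cells by depth MYCN turned to −0.0068.

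At matched promoter score the rise of MLX, USF2 and USF1 remained and that of MYC was no longer seen. The score still held motifs close to MLX, USF2 and USF1, so their rise was again in part set in advance. In replicate 1 MLX took 0.0227% of counts in the bottom and 0.0244% in the top terciles of the MITF/TFE score, and in replicate 2 it took 0.0229% and 0.0243%. The bottom terciles of both libraries lay below both top terciles. Its log2 difference was 0.099 ± 0.0055 (SE; edgeR adjusted p = 1.5e-09). USF2 went from 0.0767% to 0.0808% in replicate 1 and from 0.0776% to 0.0812% in replicate 2, a difference of 0.072 ± 0.0035 (edgeR adjusted p = 5.83e-10). USF1 went from 0.0407% to 0.0428% and from 0.0411% to 0.0427%, a difference of 0.068 ± 0.0047 (edgeR adjusted p = 1.64e-08). MYC stood at 0.0019 ± 0.0041, with −0.00034 in replicate 1 and 0.0037 in replicate 2 (edgeR adjusted p = 0.696). In all, 4 motifs were called higher and 1 lower, where 57.7% of all motifs were called, 28.5% higher and 29.2% lower. The other 2 calls were small: MNT rose by 0.011 and MYCN fell by 0.016, and these calls were lost under 8 and 5 of 12 alternatives. Without the replicate block MLX and USF2 were called and USF1 was not.

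**Figure D4:**
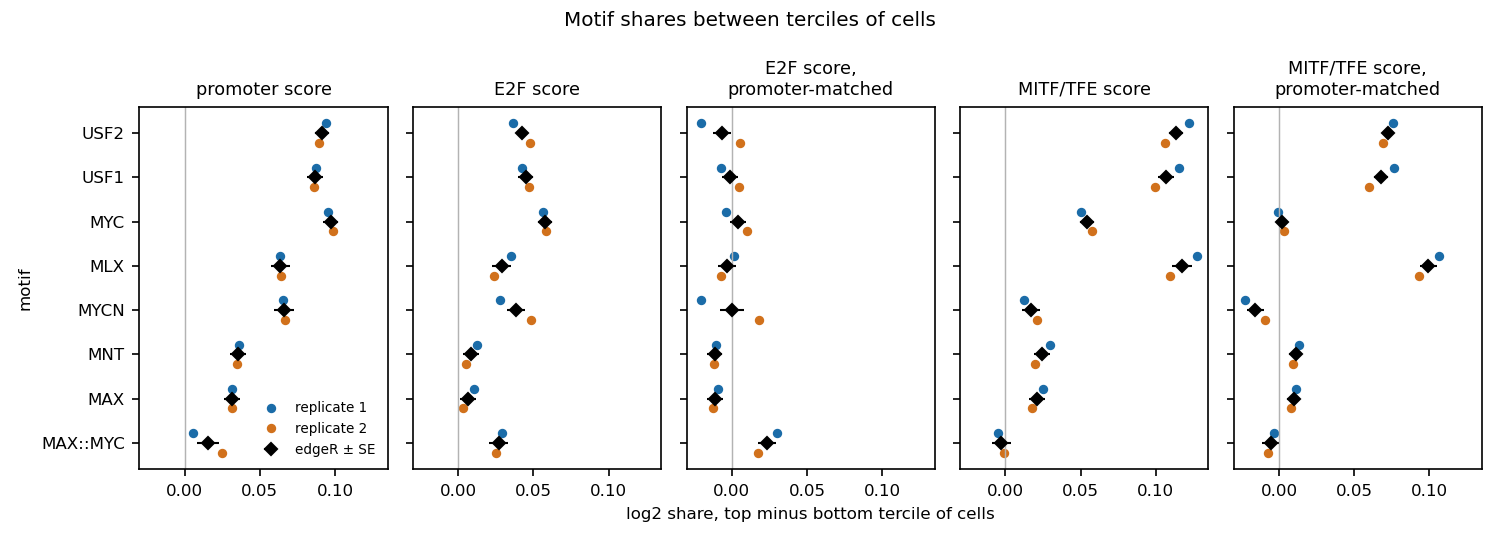
Log2 difference in share of counts between the top and the bottom tercile of cells for each motif and score; circles are the 2 replicates, diamonds the edgeR estimate with its SE. In the promoter-matched E2F panel 7 of the 8 estimates lie between −0.011 and 0.0038, and in the promoter-matched MITF/TFE panel MLX, USF2 and USF1 stand at 0.068 to 0.099 with MYC at 0.0019.

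Beside the 8 members, 16 other motifs listed as E-box or related bHLH-PAS patterns were measured, leaving out MLXIPL as a near copy of MLX. Between terciles of the promoter score 15 of 16 rose and 0 fell, with a median of 0.033, from HIF1A (0.14) to CLOCK (0.0099, not called). Of all motifs 38.3% were higher and 38.9% lower there. Between promoter-matched terciles of the MITF/TFE score 9 rose and 1 fell, where 28.5% of all motifs were higher and 29.2% lower. The rises were led by BHLHE41 (0.11), and HES5 fell by 0.029. Between promoter-matched terciles of the E2F score 2 rose and 6 fell, not far from the shares of all motifs, 24.7% higher and 29.9% lower. HIF1A rose there by 0.049 and Arntl, a clock factor, fell by 0.034.

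Retinal cell classes were described by scores of ganglion cell (POU4F1, POU4F2, POU4F3, EBF1, ISL2), neurogenic, TEAD and SOX motifs, the last 2 being patterns of progenitor factors. By ganglion score none of the 8 motifs was called, while 66.5% of all motifs were, 31.1% higher and 35.4% lower; the estimates ran from −0.0061 to 0.012, 0 members had an unadjusted p under 0.05, and DESeq2 called 0. This depended on the cells and motifs used: 4 members were called with all deposited barcodes, 3 in the middle tercile of cells by depth, 2 with motifs of a mean of at least 50 counts and 1 with cells thinned to 300000 counts. USF2 reached 0.047 and MLX 0.039 in the middle tercile by depth, whereas both turned negative in thinned cells, at −0.014 and −0.018. At matched promoter score 3 were called higher (67.5% of all motifs called, 35.2% higher and 32.3% lower): USF2 by 0.026, MLX by 0.022 and MYC by 0.013, the MYC call being lost under 7 of 12 alternatives. By neurogenic score MYC rose by 0.033 and USF2 by 0.032 (64.1% of all motifs called, 33.9% higher and 30.2% lower), and at matched promoter score by 0.025 and 0.024 (62.7% called, 33.9% higher and 28.8% lower). For MYC the replicates gave 0.034 and 0.032 before matching, whereas MYCN gave 0.037 and −0.0089. Across cells USF2 had the opposite sign, with r of −0.053 and −0.022 with the neurogenic score in replicates 1 and 2. MYC had only 0.023 and 0.018. With the promoter score regressed out, USF2 stood at 0.138 and 0.131 and MYC at 0.185 and 0.137. With no replicate block 0 members were called in the 4 ganglion and neurogenic comparisons. With thinned cells 0 were called in the neurogenic, matched neurogenic and matched ganglion comparisons, and MLX and MYC turned to −0.0020 and −0.0036 in the last. The ganglion and neurogenic comparisons were 4 of 14 between terciles of cells.

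MAX::MYC went the opposite way to USF and MYC along the progenitor scores. From the bottom to the top tercile of the SOX score 7 motifs fell and MAX::MYC rose, with 84.1% of all motifs called, 40.2% higher and 43.9% lower. USF2 fell by 0.080, MYC by 0.078, USF1 by 0.078 and MLX by 0.058. MYCN fell by 0.041, MNT by 0.023 and MAX by 0.019. MAX::MYC rose by 0.020 ± 0.0073 (SE; edgeR adjusted p = 0.00802), with 0.017 and 0.022 in the 2 replicates, and the call was lost under 4 of 12 alternatives. The SOX score correlated with the promoter score at −0.70. At matched promoter score MAX::MYC rose by 0.029, USF1, USF2, MYC and MLX fell by 0.035, 0.033, 0.029 and 0.026, and the other 3 were not called (73.1% of all motifs called, 36.3% higher and 36.8% lower). By TEAD score (84.1% called, 41.3% higher and 42.8% lower) MAX::MYC rose by 0.025, USF2 fell by 0.075, MYC by 0.060, USF1 by 0.058 and MLX by 0.039. The same 5 were called with the same signs at matched promoter score (75.8% called, 40.1% higher and 35.8% lower), with MAX::MYC at 0.036. With no replicate block 3, 0, 2 and 0 members were called in these 4 comparisons, MAX::MYC in none. Depth moved with these scores: the top tercile of cells by SOX score had 1.16 and 1.11 times the median depth of the bottom tercile. Between terciles of depth itself 6 of the 8 motifs fell, by 0.017 to 0.046, and MAX::MYC stood at 0.0016 (56.8% of all motifs called, 25.2% higher and 31.6% lower). With no replicate block 0 members were called by depth, and 0 with all deposited barcodes, where MYC, MAX, MNT and MLX turned to 0.010, 0.028, 0.030 and 0.0062. The part of depth in the SOX and TEAD differences was not tested.

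Cells were finally clustered without the 8 motifs and without 15 motifs correlated with one of them above 0.7 in both libraries. This gave 6 clusters. Cluster 4, with 13.4% ± 0.48 of cells (SD, n = 2), was led by POU4F1, POU4F3 and POU4F2 and held 4 ganglion cell motifs among its top 10, so it was ganglion cell-like. Cluster 5, with 15.2% ± 0.91, was led by NEUROD1, NEUROD2 and Neurog1 and was neurogenic-like. Cluster 6, with 4.80% ± 0.20, was led by Crx, Dmbx1 and NEUROD1, and clusters 1, 2 and 3 held 29.0%, 25.5% and 12.1%. These 4 stay unnamed. No cluster had an endothelial, erythroid or microglial marker motif among its top 10. Of all motifs 98.1% differed among these clusters, and all 8 members did as well, which is to be read against that share; with no replicate block 3 did: MLX, USF1 and USF2.

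**Figure D5:**
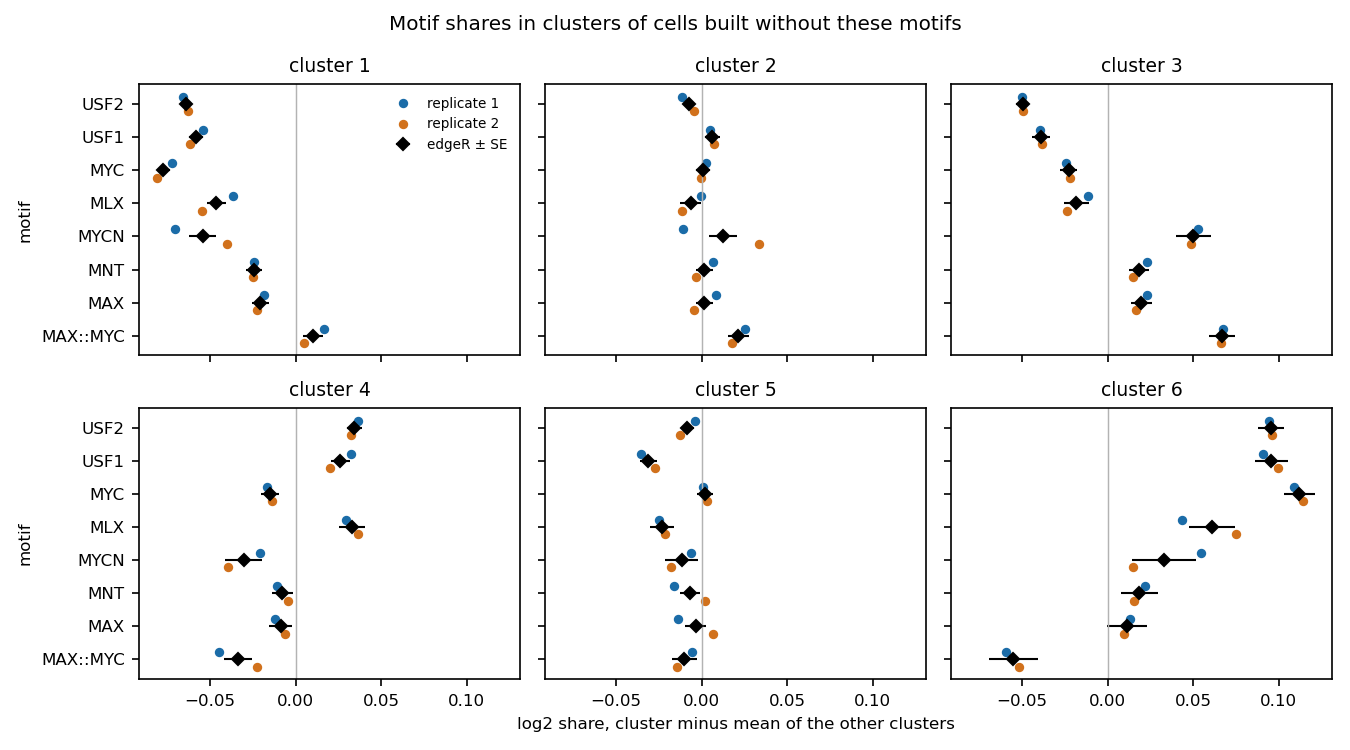
Log2 share of each motif in a cluster minus the mean of the other clusters; circles are the 2 replicates, diamonds the edgeR estimate with its SE. Cluster 4 has USF2, USF1 and MLX above 0 and MYC, MYCN and MAX::MYC below it, and MAX::MYC is highest in cluster 3 and lowest in cluster 6.

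In the ganglion cell-like cluster USF2 was higher than the mean of the other clusters by 0.034 ± 0.0043 (SE; edgeR adjusted p = 1.8e-06), MLX by 0.033 and USF1 by 0.026. MAX::MYC was lower by a log2 difference of −0.033 ± 0.0082 (edgeR adjusted p = 0.00141), MYCN by −0.030 and MYC by −0.015. The replicates gave the same sign for each of these 6, and MAX and MNT were not called. In this cluster 31.4% of all motifs were higher and 42.5% lower, the promoter motifs averaged −0.0097 and the E2F motifs −0.041. In the neurogenic-like cluster USF1 (−0.031) and MLX (−0.023) were lower and 0 members were higher, where 32.1% of all motifs were lower and 30.6% higher. Cluster 1 was low for 7 of the 8 motifs, MYC most of all at −0.077 (45.8% of all motifs lower and 41.1% higher), and its promoter motifs averaged −0.041. Cluster 6 was high for MYC (0.11), USF1 (0.096), USF2 (0.095) and MLX (0.061), where 32.8% of all motifs were higher, and low for MAX::MYC (−0.055), where 40.9% were lower. Its promoter motifs averaged 0.071, and its cells had 0.730 and 0.856 times the median depth of their libraries. Cluster 3, whose cells had 1.27 and 1.28 times the median depth, was high for MAX::MYC (0.067), MYCN (0.050), MAX (0.020) and MNT (0.019), where 36.4% of all motifs were higher. It was low for USF2 (−0.050), USF1 (−0.039), MYC (−0.023) and MLX (−0.018), where 41.3% were lower. In cluster 2 MAX::MYC was higher (0.021) and USF2 lower (−0.0076), where 47.7% and 27.1% of all motifs were. The part of depth in the values of clusters 3 and 6 was not tested.

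The clusters were built on both libraries together, and each motif's highest and lowest cluster were chosen in either library and measured in the other. MYC differed most between its highest and its lowest cluster, by 0.16 ± 0.0081 (SD, n = 2), from cluster 1 to cluster 6 in both directions of the choice. USF2 differed by 0.13 ± 0.00086 and USF1 by 0.13 ± 0.0096 between the same clusters. MAX::MYC differed by 0.10 ± 0.0052 between clusters 6 and 3, and MLX by 0.087 ± 0.029. MYCN gave 0.10 and 0.046 in the 2 libraries, and the cluster that was highest for it was not the same in both. MNT and MAX differed least, at 0.036 and 0.034, and for MNT too the highest cluster was not the same in both libraries. The median over all motifs was 0.11.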

How the data were processed

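Both libraries were made from retina of WT mice. The deposited files hold raw whole-number counts per motif and barcode, written by software version 1.1.0 per the file headers; Cell Ranger and mm10 are named per the submitters' processing notes, with no settings for peaks or motif search. Cells were kept at 300000 or more counts and above the same barcode in the other library. Per-cell values were log2(counts per 10000 + 1), with log10 depth regressed out within each library, and a list score was the mean of standardized values. Counts summed per library and tercile of cells (3 equal groups by score) were tested with edgeR 4.0.16 (R 4.3.3) quasi-likelihood fits with the library as block and TMM scaling, adjusted over 579 motifs at 0.05. The block was used because both terciles, or all clusters, of a library come from the same sample. Residual degrees of freedom were 2 for terciles and 5 for clusters. To these edgeR added prior degrees of freedom from the spread pooled over all motifs. They ran from 4.75 (TEAD) to 15.5 (promoter) where not infinite, so the p-values rest largely on the pooled spread. Clusters were found with scanpy 1.11.5 and igraph 0.11.9 (resolution 0.5, 15 components, 20 neighbours). DESeq2 1.42.0 was an alternative.

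edgeR's estimate of the negative binomial dispersion stopped at the floor of its search grid and found few of the known changes in test data. The fit was therefore changed to a negative binomial dispersion of 0, with the quasi-dispersion carrying the spread, after results of the default fit had been seen. Tested on simulated data with 1.05-fold changes among 579 motifs, the promoter terciles recovered 100 of 100 raised and 97 of 100 lowered motifs and called 7 of 379 unchanged ones. The promoter-matched E2F terciles recovered 98 of 100 in each direction and called 8 of 379. The simulated rise had a median log2 difference of 0.070 in the promoter terciles, larger than many of the differences given above. Recovery of smaller changes was not tested, and fewer motifs were changed than were called in the data.

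Named are all 8 members, the 5 motifs most and the 3 least like their mean score, motifs of the fixed lists, the 3 leading motifs of a cluster, and those of 12 MYC target genes whose promoter holds the core. The members and lists were chosen with earlier results of these data known; E2F5 was not analysed here. Counting noise is understated, since cuts come in pairs and a cut in a shared peak adds to several motifs.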

Additional observations from a re-analysis of the deposited data

How the results depend on the processing

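Over 1312 recomputed log2 differences of the 8 motifs, 1114 kept their direction and their side of the threshold, 97 lost the call, 40 gained one and 61 turned sign. The causes were not tested. Names of scores stand for terciles of cells by that score, and matched for promoter-matched terciles. Without the replicate block, the number of members called was 3 (promoter), 1 (E2F), 3 (MITF/TFE), 0 (neurogenic), 2 (TEAD), 3 (SOX), 0 (depth), 0 (matched E2F), 2 (matched MITF/TFE), 0 (matched ganglion), 0 (matched neurogenic), 0 (matched TEAD), 0 (matched SOX), 3 (held-out clusters). The sign turned for depth (MAX::MYC −0.00136). Without TMM scaling, the sign turned for matched E2F (MYCN 0.00593, MLX 0.00282, USF1 0.00501), matched MITF/TFE (MYC −0.00112), matched neurogenic (USF1 −0.00381), matched SOX (MYCN 0.00253, MAX 0.0051, MNT 0.00337). With DESeq2, the sign turned for matched neurogenic (USF1 −0.000669). With an estimated negative binomial dispersion, an alternative chosen after seeing the data, the number of members called was 3 (matched MITF/TFE). With motifs of a mean of at least 50 counts, the number of members called was 2 (ganglion), 6 (matched ganglion). Opposite signs were given for ganglion (MYC 0.000617, MYCN 0.00293, MAX::MYC 0.00139, USF1 0.000495), matched E2F (MYCN 4.64e-05). With cells of at least 1000000 counts, the number of members called was 4 (neurogenic), 3 (matched E2F). The direction was opposite for ganglion (MYCN 0.00169), matched E2F (MYCN 0.00193), matched MITF/TFE (MAX::MYC 0.00348), matched SOX (MAX 8.44e-06). Other values were median residual of members 0.00124, median r with promoter 0.394, median r with E2F 0.225, median r with MITF/TFE 0.312. With all deposited barcodes, the number of members called was 4 (ganglion), 0 (depth), 0 (matched E2F). Turned signs were found for ganglion (MYC 0.00357, USF1 0.021), depth (MYC 0.0103, MAX 0.0284, MNT 0.0296, MLX 0.00618), matched ganglion (MYCN −7.47e-05), matched neurogenic (USF1 −0.00207). Other values were median residual of members −0.0184, median r with promoter 0.116, median r with E2F 0.0872, median r with MITF/TFE 0.117, median r with E2F (promoter out) 0.0712, median r with MITF/TFE (promoter out) 0.0979. In the middle tercile of cells by depth, the number of members called was 3 (ganglion), 2 (matched E2F). Differences changed sign for MITF/TFE (MYCN −0.00682), ganglion (MYC 0.0191, MYCN 0.00453, MAX::MYC 0.000366, USF1 0.0255), matched E2F (MYC −0.00446, MYCN 0.0248), matched ganglion (MAX::MYC 0.00524), matched TEAD (MAX −0.00564, MNT −0.00794), matched SOX (MAX 0.000785). Other values were 8 members together 0.312, median residual of members −0.040, median r with promoter 0.291, median r with MITF/TFE 0.259, median r with MITF/TFE (promoter out) 0.0733. With cells thinned to 300000 counts, the number of members called was 1 (ganglion), 0 (neurogenic), 5 (SOX), 3 (matched E2F), 3 (matched MITF/TFE), 0 (matched ganglion), 0 (matched neurogenic). The opposite direction was seen for ganglion (MNT −0.00622, MLX −0.0175, USF2 −0.0138), neurogenic (USF1 −0.0163), TEAD (MNT 0.00506), matched E2F (MYCN 0.0283, MNT 0.0051, MLX 0.0188, USF1 0.029, USF2 0.00709), matched ganglion (MYC −0.00359, MYCN −0.0145, MLX −0.00199, USF1 −0.00352), matched neurogenic (MYCN −0.00416, MLX −0.0116, USF1 −0.0202), matched TEAD (MAX −0.0113). With a split at the median score in place of terciles, the number of members called was 0 (matched E2F), 3 (matched MITF/TFE), 5 (matched neurogenic). Sign changes arose for ganglion (MYCN 0.00382). With a pseudocount of 0.1, the sign turned for matched E2F (MYCN 0.000458, USF1 0.00146). Other values were median r with promoter 0.366. Without depth regression, the sign turned for matched E2F (MYCN 0.000409), matched neurogenic (USF1 −0.000649). The libraries taken singly gave a median r with the E2F score, promoter out, of 0.000685 to 0.0476, and with the MITF/TFE score, promoter out, of −0.00576 to 0.0644. Counting noise took from 10.5% of the variance across cells (USF2) to 36.9% (MAX) in replicate 1.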
